A study of Gallus gallus with 10 samples.

Results

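In cultured chicken otocysts, 76 of 25747 measured transcripts met a rule for being lowered by the Wnt pathway inhibitor IWR-1. A fold limit applied within each of 5 embryos, and an abundance limit applied to the mean of the DMSO libraries. For 74 of the 76, IWR-1 was the lower otocyst in all 5 embryos. The other 2 were at 0 in both otocysts of 3 embryos, which the rule lets pass. The otocyst is the epithelial vesicle that gives rise to the inner ear. Both otocysts were taken from White Leghorn embryos at embryonic day 2.5 by the sample labels, freed of mesenchyme and kept floating in medium for 24 h. The right otocyst of embryos 76, 77, 79, 81 and 82 received 300 µM IWR-1, and the left one received the solvent DMSO, with 1 library per otocyst. Treatment and body side cannot be told apart, since IWR-1 always went to the right. The text describing the whole series names a different embryonic day and spells the compound differently.

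Canonical Wnt signalling keeps beta-catenin from being destroyed, so that it can enter the nucleus and switch on target genes together with TCF and LEF factors. Axin is the scaffold of the complex that destroys beta-catenin. IWR-1 inhibits tankyrase, an enzyme that marks axin for removal, and so stabilises axin and lowers the pathway's output. In the inner ear, Wnt signals from the neighbouring hindbrain are known to favour dorsal, vestibular fates in the otocyst.

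A transcript was counted as lowered if its level averaged at least 5 TPM (a level scaled to transcript length and to the library's total) in the 5 DMSO libraries and if DMSO was at least 1.2 times IWR-1 within each embryo. Of 25747 transcripts, 10567 reached 5 TPM with DMSO, and the 76 are 0.719% of these. The mirror rule, with IWR-1 at least 1.2 times DMSO in each embryo and at least 5 TPM on average with IWR-1, gave 22 of 10432 transcripts, or 0.211%. Lower in every embryo at any size were 961 transcripts (9.09%), and higher were 407 (3.9%). Because the rule reads the TPM of all 10 libraries, the sizes given below describe the chosen transcripts and are not tested. In bulk RNA, fewer cells of a kind and less RNA per cell cannot be told apart.

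No transcript carries a gene name here, since the files give transcript IDs alone and the reference table matched 0 of the 25747. Wnt targets, otic genes and markers of other tissues could therefore not be looked up, and the otocyst label was not checked against markers. Transcripts are identified by their rank and annotated length, with IDs printed for 2 lowered and 2 raised ones. Total estimated counts were 26024252 to 28572053 with IWR-1 and 24470010 to 27243498 with DMSO.

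The lowered transcript with the largest difference was ENSGALT00000040012.2, of 2062 bases, which was close to absent after IWR-1. Its level was 0.813, 0.520, 0.880, 1.47 and 0.784 TPM in the IWR-1 otocysts of embryos 76, 77, 79, 81 and 82, against 20.6, 30.4, 39.3, 31.1 and 8.30 TPM in their DMSO otocysts. The highest IWR-1 library thus lay below the lowest DMSO library. The means were 0.894 ± 0.351 TPM with IWR-1 and 25.9 ± 11.9 TPM with DMSO (SD, n = 5), and the fold within an embryo ran between 10.6 in embryo 82 and 58.4 in embryo 77. It rested on 21.0 to 64.9 estimated counts per IWR-1 library and 330.4 to 1489 per DMSO library.

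The second in size, a transcript of 435 bases, had 4.91, 4.55, 11.4, 4.67 and 10.7 TPM with IWR-1 in the same embryo order and 33.5, 22.7, 26.8, 15.9 and 25.7 TPM with DMSO. These groups did not overlap either, and its fold ran between 2.35 and 6.83. Its counts were whole numbers in every library, at 25 to 63 with IWR-1 and 88 to 167 with DMSO. A whole count carries no sign of reads divided with another transcript, which matters for several others below. It does not show that none of its reads fit another transcript.

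Further down, the difference ranked 10 belonged to a transcript of 4264 bases with whole counts of 2161 and more. It had 64.8, 26.6, 71.8, 22.6 and 41.8 TPM with IWR-1 and 157.4, 85.8, 163.5, 58.8 and 68.5 TPM with DMSO. Here the groups overlapped, since embryos 76 and 79 were high and embryos 77, 81 and 82 were low under both treatments, yet DMSO was the higher otocyst by 1.64 to 3.23-fold within each embryo. A transcript of 1500 bases, ranked 16, was more even. It stood at 38.2, 43.5, 37.96, 28.4 and 29.2 TPM with IWR-1 and at 73.7, 78.1, 82.4, 68.2 and 54.4 TPM with DMSO.

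The most abundant lowered transcript was ENSGALT00000081140.1, of 2732 bases. Its TPM was 349.7, 308.9, 361.5, 363.1 and 363.3 with IWR-1 and 425.4, 445.2, 487.8, 468.5 and 446.1 with DMSO, in the order of embryos given above. The groups did not overlap although the difference was small, with a mean log2 ratio of -0.38 ± 0.10 (SD, n = 5 embryos). The log2 ratio here and below is log2((IWR-1 TPM + 1)/(DMSO TPM + 1)) within an embryo, so that negative values mean lower with IWR-1. The next in abundance were 605, 604 and 417 bases long and also had whole counts. The transcript of 604 bases was nearly constant with IWR-1, at 192.6 ± 11.2 TPM, and ranged from 281.9 to 532.5 TPM with DMSO. Its fold was largest in embryos 76 and 77, whose DMSO libraries were the highest, and smallest in embryo 82, whose DMSO library was the lowest.

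**Figure D1:**
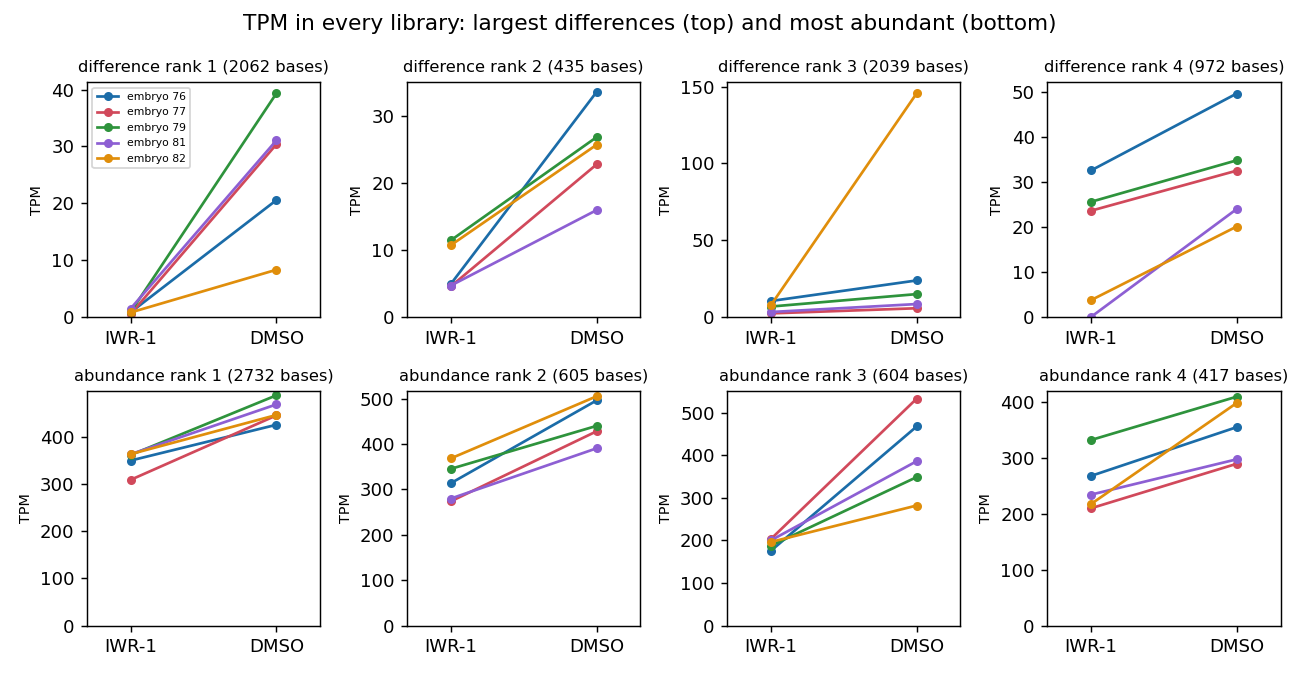
TPM in each library (y axis) with IWR-1 and DMSO (x axis) for the 4 lowered transcripts with the largest mean log2 ratio (top) and the 4 most abundant (bottom). Each line joins both otocysts of 1 embryo, and all lines climb towards DMSO; the 3rd panel is set by 145.7 TPM in the DMSO otocyst of embryo 82.

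Differences of most lowered transcripts were modest. The median of the mean log2 ratio was -0.68 over the 76, with quartiles of -0.92 and -0.51, beside -0.03 over all 10567 transcripts at or over 5 TPM. Only 12 had at least a 1.5-fold difference in every embryo and 3 at least 2-fold, those ranked 1 to 3. A 3-fold difference in every embryo was found for ENSGALT00000040012.2 alone. By the ratio of group means, 56 differed by 1.5-fold or more and 18 by 2-fold or more. Of the 380 pairs of otocysts (76 transcripts in 5 embryos), 155 had a fold between 1.2 and 1.5, 107 between 1.5 and 2, 83 between 2 and 4, and 24 from 4 upwards. In 5 pairs the IWR-1 otocyst alone was at 0, and in 6 pairs both were.

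The limit of 1.2 cut through a dense range. The lowered transcripts just inside it had a smallest fold of 1.202, 1.209 and 1.210, and those just outside had 1.199, 1.198 and 1.196. A smallest fold between 1.1 and 1.2 was found for 128 transcripts at or over 5 TPM, against 35 between 1.2 and 1.3. At the abundance limit, the lowered transcripts just inside averaged 5.05, 5.07 and 5.33 TPM with DMSO, and those just outside 4.93, 4.81 and 4.68 TPM.

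**Figure D2:**
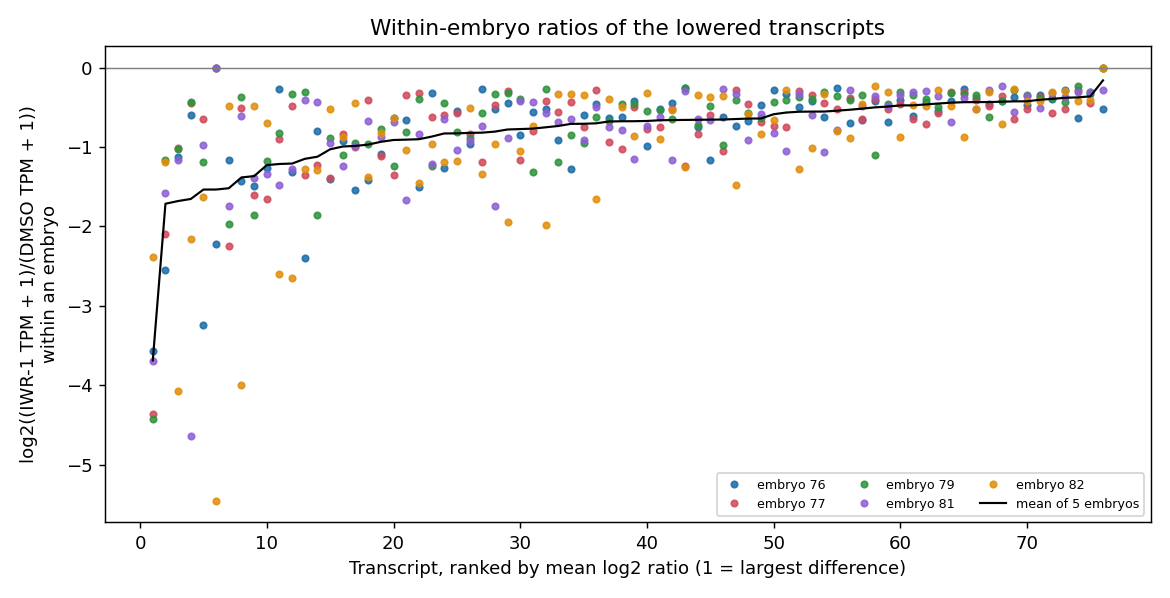
Within-embryo log2((IWR-1 TPM + 1)/(DMSO TPM + 1)) on the y axis for the 76 lowered transcripts, ranked on the x axis by the mean over embryos (black line); each point is 1 embryo. The mean ran between -3.69 and -0.16, and points at 0 belong to 2 transcripts with both otocysts of an embryo at 0.

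Low abundance was common among the lowered transcripts. Their median level with DMSO was 14.6 TPM, against 23.1 TPM for all transcripts over the limit. Between 5 and 10 TPM, 29 of 2331 transcripts were lowered (1.24%), between 10 and 30 TPM 28 of 3773 (0.742%), between 30 and 100 TPM 9 of 2771 (0.325%), and from 100 TPM 10 of 1692 (0.591%). The share thus did not keep declining with abundance. In these 4 ranges the median log2 ratio of the lowered transcripts was -0.70, -0.67, -0.77 and -0.66. These values follow the choice by the rule, and the added 1 TPM shrinks the ratio of the least abundant, so sizes are not compared between the ranges. All 10 libraries held at least 100 estimated counts for 49 of the 76, while 9 had a library with fewer than 10 counts.

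Of the 22 raised transcripts, 12 were between 5 and 10 TPM with IWR-1, 1 was between 30 and 100 TPM and 0 reached 100 TPM. Their median log2 ratio was 0.61, and 2 differed by 1.5-fold or more in every embryo. The largest difference was that of ENSGALT00000081854.1, of 1491 bases, at 1.03, 24.7, 17.5, 19.96 and 14.7 TPM with IWR-1 and 0, 10.98, 0.00702, 6.85 and 4.26 TPM with DMSO. Those groups overlapped, as the IWR-1 otocyst of embryo 76 was near 1 TPM. The estimated counts of ENSGALT00000081854.1 were not whole numbers. In embryos 76 and 79 they were 4.83e-05 and 0.185 with DMSO, against 28.1 and 472 with IWR-1. The most abundant raised transcript, ENSGALT00000080768.1, of 552 bases, had 41.3, 59.0, 104.9, 27.9 and 46.1 TPM with IWR-1 and 29.2, 22.6, 21.6, 21.2 and 20.9 TPM with DMSO. All but 1 of its IWR-1 libraries lay above all its DMSO libraries.

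**Figure D3:**
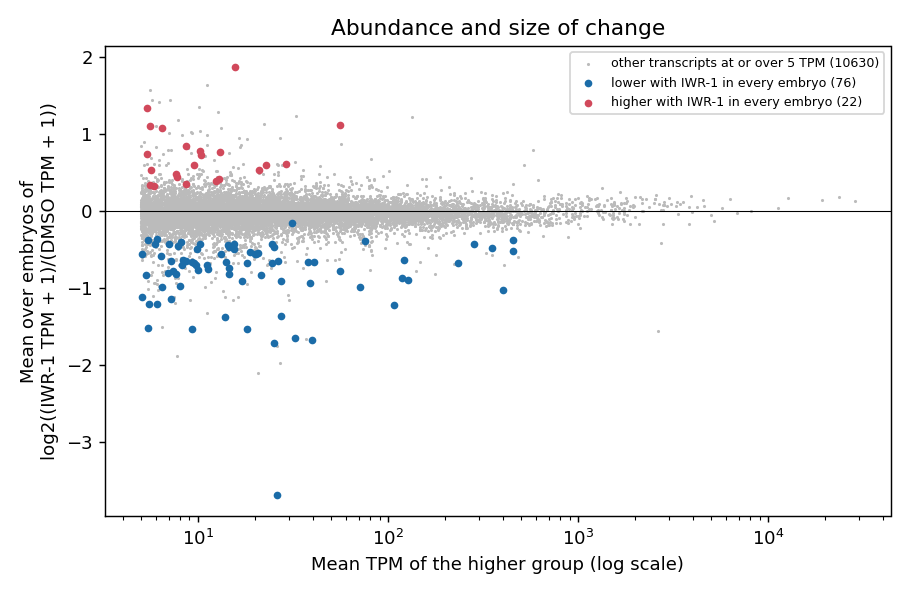
Mean over embryos of the log2 ratio of IWR-1 to DMSO (y axis, TPM + 1) against the mean TPM of the higher group (x axis, log scale), with 1 point per transcript at or over 5 TPM in either group. The 76 lowered transcripts (blue) reach 455 TPM, while the 22 raised ones (red) reach 55.9 TPM.

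The rule requires a fold of at least 1.2 in every embryo, so a negative median in each was fixed in advance and only sizes are described. The median log2 ratio of the 76 was -0.62 in embryo 76, -0.58 in 77, -0.46 in 79, -0.65 in 81 and -0.71 in 82. Over all transcripts at or over 5 TPM the medians were 0.04, -0.05, -0.02, -0.10 and -0.02 in that order. In embryo 81 the median transcript was thus itself slightly lower with IWR-1. The largest difference of a lowered transcript fell in embryo 82 for 21 of them, in 77 for 17, in 76 for 16, in 81 for 13 and in 79 for 9. Embryo 82 also held the smallest difference of 21.

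The size of a difference was often unequal between embryos. Among the 71 lowered transcripts with a fold in all 5 embryos, the largest fold was less than 1.5 times the smallest for 25, between 1.5 and 2 times for 22, between 2 and 4 times for 14 and over 4 times for 10. Some of the widest ranges rested on next to no reads. The lowest library of transcripts of 798, 1461 and 1620 bases held 0.163, 0.280 and 0.878 estimated counts. Their folds in that embryo were 670, 409 and 197. In 31 of the 76 (40.8%) all IWR-1 libraries lay below all DMSO libraries, where this held for 1.32% of all transcripts at or over 5 TPM. Among the raised transcripts it was 7 of 22 (31.8%) in the opposite direction, beside 0.403% of all. Nothing is read from these shares, since the rule used the same values.

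Levels of the lowered transcripts varied more between embryos than is usual in these libraries. The SD of the 5 IWR-1 libraries was 22.3% of the mean for the median lowered transcript, against 13.4% for all transcripts over the limit. With DMSO it was 23.6% for the lowered transcripts, against 11.8% for all. The raised transcripts varied more as well, at 19.3% with IWR-1 and 22.0% with DMSO, against 13.3% and 11.7% for all. The rule used the same values, so this spread is not read as a trait of the lowered transcripts. DMSO levels of 76 and 81 were both above the other 3 for 4 lowered transcripts (5.26%, against 8.05% of all over the limit), and both below for 5 (6.58%, against 9.08%). One of the 4, of 1074 bases, was present in those 2 embryos alone, at 52.2 and 66.1 TPM with IWR-1 and 75.6 and 80.5 TPM with DMSO, and at 0 in both otocysts of the other 3.

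That transcript and another of 2208 bases met the rule although both otocysts of an embryo were at 0, where DMSO is not higher. The transcript of 2208 bases was at 0 in all 5 IWR-1 libraries and had 3.67 and 42.8 TPM in the DMSO libraries of embryos 76 and 82 only. Without these, 74 lowered transcripts remained, and 20 of the 22 raised ones.

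The DMSO library of embryo 82 stood high for several lowered transcripts. It was at least 2 times the next DMSO library for 5 of the 76, whereas that of 76, 79 or 81 was so for 1 each and that of 77 for 0. Among all transcripts over the limit it was 0.520% for embryo 82 and 0.0757% to 0.114% for the others, so this library differed beyond the lowered set as well. On average 4 lowered transcripts reached 5 TPM only through the DMSO library of embryo 82, and 2 or 3 only through each of the others. The count of 5 thus follows in part from the choice. A transcript of 2039 bases, ranked 3, had 2.30 to 10.4 TPM with IWR-1, against 145.7 TPM in the DMSO library of embryo 82 and 5.64 to 23.8 TPM in the other DMSO libraries. A transcript of 2073 bases, ranked 8, had 1.18 to 2.58 TPM with IWR-1, against 52.2 TPM there and 1.81 to 8.63 TPM in the other DMSO libraries. In the other 4 embryos the folds of the transcript ranked 3 were 2.20 to 2.63. The part of other tissue in that library was not tested, as no markers could be named.

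**Figure D4:**
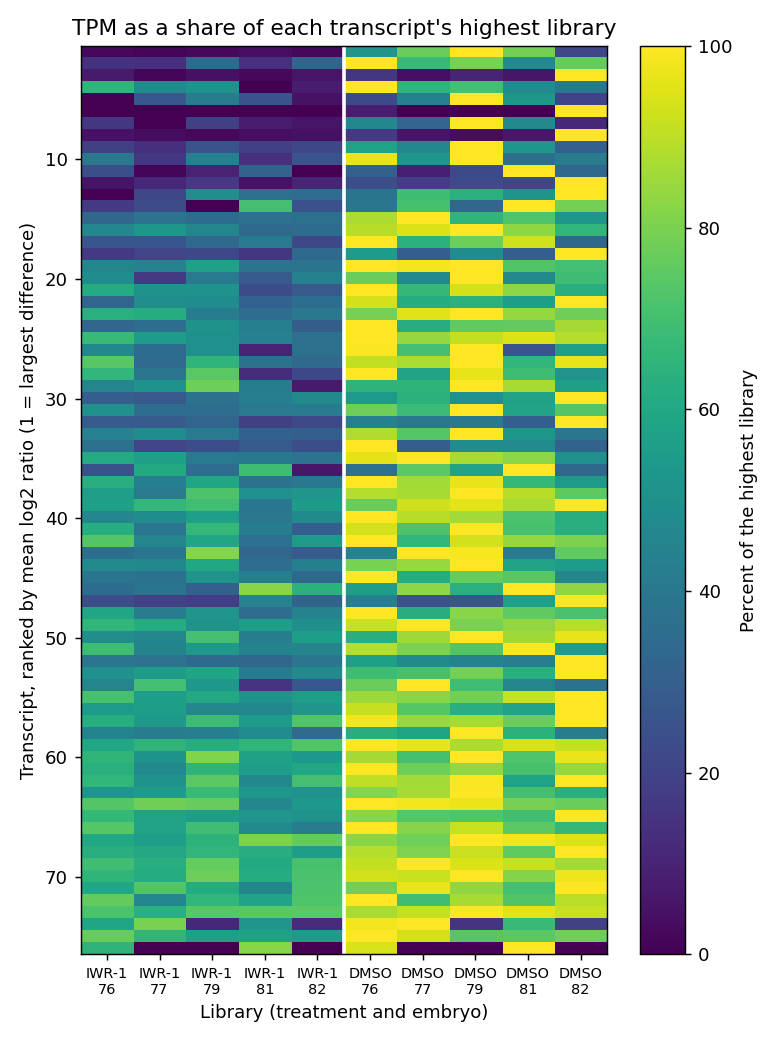
TPM of the 76 lowered transcripts (rows, ranked by mean log2 ratio) in the 10 libraries (columns, IWR-1 left and DMSO right), as a percent of the transcript's highest library. Within each embryo the DMSO column is the brighter one, or both are at 0, as the rule requires; rows lit only in the DMSO library of embryo 82 are those with a value far above the other DMSO libraries.

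Whether the difference also appears in an embryo that took no part in the choice was read by leaving each embryo out in turn. The rule was applied to the other 4 embryos, and the chosen transcripts were then read in the 5th, without those at 0 in both of its otocysts. In embryo 76, 73 of the 133 transcripts chosen on the other embryos were lower by 1.2-fold or more (54.9%), and 22 were higher by as much (16.5%). In embryo 77 it was 73 of 114 (64.0%) with 12 higher (10.5%), in 79 73 of 151 (48.3%) with 28 higher (18.5%), in 81 74 of 102 (72.5%) with 4 higher (3.92%), and in 82 74 of 147 (50.3%) with 17 higher (11.6%). Over all transcripts at or over the limit, 13.6% to 22.4% were lower by as much in the embryo left out, and 7.84% to 19.7% were higher. In each embryo left out, the chosen transcripts were lower by as much more often than higher, and more often than transcripts in general. Apart from the abundance limit, those lower by 1.2-fold or more are drawn from the 76 lowered transcripts, counted again for each embryo. The 5 embryos are therefore not 5 separate checks, and it is mainly the number chosen that differs between them. These shares describe the lowered transcripts again and are not read as separate support for them.

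At any size, 75.4% of the 647 readings were lower in the embryo left out, against 55.6% over all transcripts. The share ran between 63.6% in embryo 79 and 87.3% in embryo 81, where 69.2% of all transcripts were lower too. Readings are not independent, since the same transcript can be chosen up to 5 times and transcripts within a library share its preparation, so that no p-value is given. Since a fold was required only in the embryos used to choose, a smaller difference in the embryo left out was favoured beforehand. The difference was smaller there. Its median log2 ratio was -0.28, -0.42, -0.20, -0.46 and -0.25 in embryos 76, 77, 79, 81 and 82, against -0.58, -0.67, -0.63, -0.66 and -0.65 in the 4 embryos used each time.

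The raised transcripts were read in the same way. Of 244 readings, 46.3% were higher by 1.2-fold or more in the embryo left out, against 12.9% over all transcripts. The lowest share was 33.3% (21 of 63) in embryo 81 and the highest 63.4% (26 of 41) in embryo 77. At any size 69.3% of the readings were higher, against 44.7% over all. Whether the lowered and the raised transcripts differ in this respect was not tested.

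**Figure D5:**
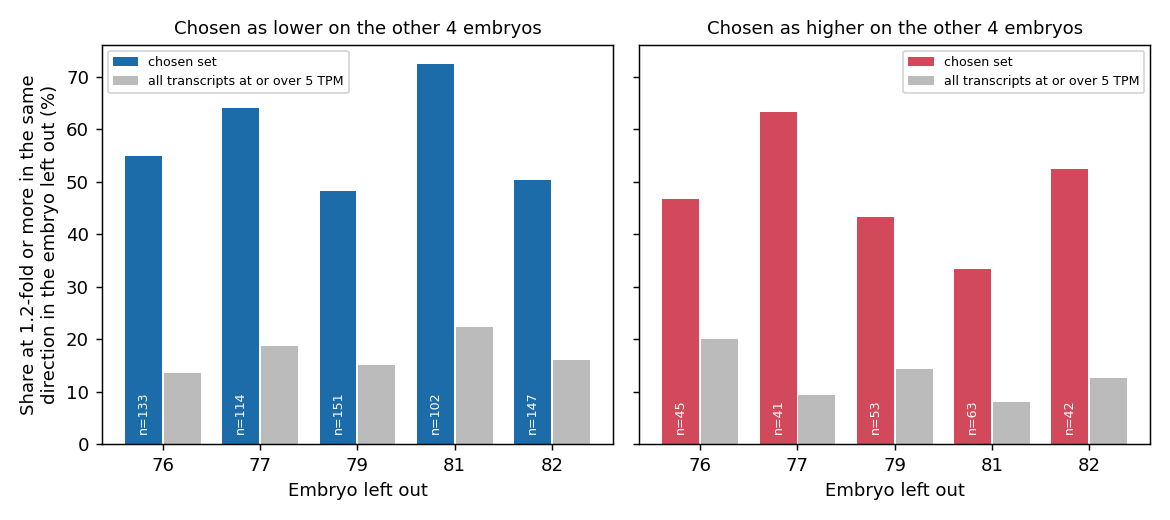
Percent of transcripts that differed by 1.2-fold or more in the embryo left out (x axis), in the direction seen in the other 4 embryos, for sets chosen as lower (blue) or higher (red) with IWR-1 and for all transcripts at or over 5 TPM (grey); n is the number chosen. The blue bars stand between 48.3% and 72.5%, and the grey bars beside them between 13.6% and 22.4%. Apart from the abundance limit, the blue bars count the same lowered transcripts each time, so they are not separate checks.

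Division of reads touched many of the lowered transcripts. Reads that fit several transcripts are divided among them, and the estimated counts can then carry decimals. Counts were whole in all libraries for 30 of the 76 lowered transcripts, which is 0.695% of the 4315 such transcripts over the limit. The other 46 are 0.736% of 6252, so the rule picked both kinds at about the same rate. Median log2 ratios were -0.67 for the 30 and -0.69 for the 46, sizes that follow the choice by the rule. Raised transcripts had whole counts in 7 of 22 cases, with a median log2 ratio of 0.41, and in 15 cases decimals, with 0.74.

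The choice on 4 embryos was repeated among whole-count transcripts alone. Of 232 readings, 81.0% were lower at any size in the embryo left out, against 56.2% over all whole-count transcripts. By 1.2-fold or more 64.2% were lower, against 14.6%. It was 29 of 48 in embryo 76, 31 of 40 in 77, 30 of 54 in 79, 31 of 35 in 81 and 28 of 55 in 82. Here too, apart from the abundance limit, those counted are the same lowered transcripts each time. Whether the share of 64.2% differs from that over all lowered transcripts was not tested. Of 67 readings of raised whole-count transcripts, 55.2% were higher by 1.2-fold or more, against 10.4% over all whole-count transcripts. At any size 85.1% were higher, against 44.3%.

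For 18 lowered transcripts the decimals matched those of a single other transcript, adding up to whole numbers in all 10 libraries. When both were summed, only 7 of the 18 sums were still lower by 1.2-fold or more in every embryo, and the median log2 ratio was -0.42 for the sums and -0.77 for the lowered transcripts themselves. Adding a partner that the rule did not choose can by itself shrink the difference, and more so where the partner is abundant. In 6 cases the partner was the more abundant of the pair with DMSO, and in 6 of these 6 the sum no longer met the rule. The clearest was the lowered transcript ranked 4, of 972 bases, which averaged 17.1 ± 14.4 TPM with IWR-1 and 32.2 ± 11.5 TPM with DMSO. Its partner of 1985 bases averaged 193.1 TPM with IWR-1 and 182.2 TPM with DMSO and was higher with IWR-1 in 5 of 5 embryos. Their sum was 210.2 TPM with IWR-1 and 214.4 TPM with DMSO, so that for this pair the total hardly differed. Whether the levels of the transcripts differed or their shared reads were divided otherwise was not tested. The fold of the lowered transcript was 1.36 to 1.53 in embryos 76, 77 and 79 and 5.39 in 82. In embryo 81 it was at 0 TPM with IWR-1.

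A transcript of 2510 bases, ranked 21, averaged 9.04 TPM with IWR-1 and 17.1 TPM with DMSO. Its partner, higher with IWR-1 in 5 of 5 embryos, averaged 22.8 TPM with IWR-1 and 20.2 TPM with DMSO. Their sum was 31.8 TPM with IWR-1 and 37.2 TPM with DMSO, a smaller difference than that of the lowered transcript alone. For ENSGALT00000040012.2 the partner held little, at 0.0914 TPM with IWR-1 and 0.486 TPM with DMSO, and the sum stayed at 0.985 TPM with IWR-1 and 26.4 TPM with DMSO. Partners of 4 lowered transcripts were themselves lower in all 5 embryos. A transcript of 1494 bases, ranked 9, is one of these, with a partner of 5285 bases at 4.71 TPM with IWR-1 and 9.00 TPM with DMSO. For the other 28 lowered transcripts with decimals no single partner was found. Some of them were never searched, as the search needed clear decimals in at least 5 libraries and counts below 10000.

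In annotated length the lowered transcripts were unremarkable, with a median of 1909 bases against 1814 for all transcripts over the limit and a range of 237 to 14623. Raised transcripts were shorter, with a median of 1116 bases against 1810.

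Models fitted across all transcripts differed widely in how many they called, with few calls by edgeR and more by DESeq2. The quasi-likelihood test of edgeR was run without an embryo term, at a Benjamini-Hochberg adjusted p below 0.05. It called 1 transcript lower out of 17504 tested (0.00571%), which was ENSGALT00000040012.2 (adjusted p = 0.00998, log2 fold change -4.80). An SE of 0.44 was back-calculated from this fold change and the F statistic of the test. ENSGALT00000040012.2 is the only call among the 73 lowered transcripts tested there. With an embryo block, which fits the paired otocysts, edgeR called 0, with 1765 transcripts at an unadjusted p under 0.05, and the adjusted p of ENSGALT00000040012.2 was 0.0706. That call was also lost without the IWR-1 library of embryo 76, of 77 or of 79, and without both libraries of embryo 76, 77, 79 or 81. DESeq2 called 33 of the 76 among its 95 lower calls (0.466% of 20395), and with the embryo block 59 of 75 among 362 (1.97% of 18373). These counts come from the contrast that chose the transcripts and are given as a description only.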

How the data were processed

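RNA from 10 single otocysts, 5 with IWR-1 and 5 with DMSO, was analysed. Each deposited table gives estimated counts and TPM for 25756 sequences, of which 9 are added constructs and were left out. The authors used bcl2fastq, kallisto and the build GRCg6a, per the submitters' processing notes, whose versions are not stated there. The deposited estimated counts are not normalised. The deposited TPM values are scaled to transcript length and library total. Use of the molecular identifiers is not stated, so counting error may be larger than the counts imply.

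The chosen transcripts, lists and alternatives were picked with earlier results of these data known. TPM below 0.001 were taken as 0, which changed no choice. Otocysts are paired because both come from 1 embryo. Printed IDs are those of the largest difference and the highest abundance in each direction. Gene lists and marker lists were not run, since no ID matched a name, and no sequence could be matched. Partners needed decimals that added up to whole numbers within 0.015 in all 10 libraries, with clear decimals in at least 5 and counts below 10000. Rounded estimated counts were tested in R 4.3.3 with edgeR 4.0.16 (TMM, default expression filter, robust, two-sided) and DESeq2 1.42.0. The code of rule and model was run on simulated data. Counts simulated for the model held no differences between embryos, so its performance on these libraries was not assessed. Python 3.11.15, pandas 2.3.3, numpy 2.4.6 and scipy 1.17.1 were used.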

Additional observations from a re-analysis of the deposited data

Results flagged for a closer look

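Each group of 5 libraries was examined for a single library far from the others, for the lowered transcripts ranked 1 to 10 by difference or abundance and the printed IDs. This was found in 5 of 41 groups, and in 12 of 151 groups (7.95%) over all 76 lowered transcripts. The nominal rate of about 1 in 20 holds for normally distributed values in groups that were not selected. The share over all transcripts was not computed and the rule used these values, so no excess is read from it. In 3 of the 5 it was the DMSO otocyst of embryo 82. It held 145.7 TPM of the lowered transcript of 2039 bases (next highest DMSO library 23.8 TPM), 42.8 TPM of the one of 2208 bases (next 3.67 TPM) and 52.2 TPM of the one of 2073 bases (next 8.63 TPM). The transcripts of 2208 and 2073 bases averaged 5 TPM with DMSO only through that library, so their high value there follows in part from the choice. Over all 76 lowered transcripts this library stood out as highest for 7, and the DMSO libraries of embryos 76 and 81 for 1 each.

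For ENSGALT00000081140.1 the IWR-1 otocyst of embryo 77 was the lowest of its group, at 308.9 TPM against 349.7 TPM in the next. For the raised transcript ENSGALT00000080768.1 the DMSO otocyst of embryo 76 was the highest of its group, at 29.2 TPM against 22.6 TPM in the next.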

How the results depend on the processing

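The numbers of lowered and raised transcripts, 76 and 22, depend on the limits. They were 205 and 77 at a fold limit of 1.1, 13 and 3 at 1.5 (12 and 2 without those at 0 in both otocysts of an embryo), 185 and 60 from 1 TPM, 47 and 10 from 10 TPM, and 229 and 97 with no minimum. Requiring 4 embryos, with 1 left out, gave 103 to 154 lowered and 41 to 65 raised. Alternatives chosen after seeing the data gave 30 and 7 on whole-count transcripts, and 13 raised with the minimum on the DMSO libraries. Scaling by TMM gave 73 and 24, CPM 68 and 25, adding 1 TPM 69 and 15, and summed pairs 67 and 21. Fewer samples or transcripts enter some of these by construction; otherwise the cause was not tested. The share of readings lower in the embryo left out was 69.4% to 81.0% over its alternatives. For raised ones it was 60.5% at a fold limit of 1.5, 55.7% from 1 TPM and 85.1% on whole-count transcripts. The median log2 ratio of the 76 was -0.75 to -0.67. That of ENSGALT00000040012.2 was -4.60 with 0.1 TPM added, in place of -3.69 with 1 TPM. That of ENSGALT00000081854.1 was 3.06 with 0.1 TPM added and 1.28 without embryo 79, in place of 1.86. The other printed IDs kept their direction and stayed within their spread over embryos. Over all transcripts edgeR made 1 call in either direction, against 0 with the replicate block, 134 with DESeq2 and 614 with DESeq2 and the replicate block. Lower calls were 1, 0, 95 and 362 of these (0.00571%, 0%, 0.466% and 1.97% of the transcripts tested). Among the 76 the lower calls were 1, 0, 33 and 59, with 73, 73, 76 and 75 of the 76 tested. Unadjusted p-values were under 0.05 for 1148 transcripts, and for 1765 with the block. With 1 library or 1 embryo removed, edgeR made 0 to 2 calls, 0 to 1 of them among the 76. Low counts limit the folds of the 9 lowered transcripts with under 10 counts in a library.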
